A study of Homo sapiens with 6 samples.

Results

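The genes described here are 9 transcription factors of the epiblast and of the anterior neural plate, measured in human embryonic stem cells (hESC) and in mesodermal progenitors derived from them. They are ZIC1, ZIC2, OTX2, POU3F1, POU3F2, PAX6, SIX3, LHX2 and HESX1, and they were chosen by name. The arrays held 18 probe sets annotated to 1 of these symbols alone, out of 41091 probe sets annotated to a single gene, and each gene is represented by the brightest of its probe sets, as for all 19775 genes tested. A further probe set that ZIC1 shares with a noncoding locus was left out. The stem cells were of H9, an established human line, kept undifferentiated, with 3 arrays. The progenitors, also 3 arrays, were H9 cells that had been cultured in Stemline II medium supplemented with BMP4, activin A, VEGF and FGF2 and isolated by flow cytometry on day 3.5 as CD326-negative, CD56-positive cells. Both groups therefore come from a single line, and day 3.5 cells that had not been sorted are not among the samples. The antigens of the sort check the labels: the mean log2 level of EPCAM (CD326) was lower by 2.33 in the progenitors, and that of NCAM1 (CD56) was higher by 3.46. Separate cultures are not stated for the arrays of a group; the p-values below reflect the spread among these arrays, and that spread may be technical.

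The epiblast, the tissue from which the embryo proper forms, and the anterior neural plate share part of their regulators. ZIC2, OTX2 and POU3F1 are present in the primed epiblast and again in the neural plate, and they accompany the exit from naive pluripotency. HESX1 and SIX3 are homeodomain repressors that protect the forebrain from posteriorizing WNT signals, LHX2 and PAX6 govern the eye field and cortex, and ZIC1 and POU3F2 act in neural progenitors. Cells that enter the primitive streak under activin, BMP and WNT signals turn away from this neural route.

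HESX1, POU3F1, ZIC2 and OTX2 were lower in the progenitors, and LHX2 was higher. The fall was 6.86-fold for HESX1 (log2 change -2.78, SE 0.13, n = 3 per group), 4.63-fold for POU3F1 (-2.21, SE 0.18), 2.09-fold for ZIC2 (-1.06, SE 0.10) and 1.74-fold for OTX2 (-0.80, SE 0.21). LHX2 rose 3.18-fold (1.67, SE 0.34). ZIC1, POU3F2, PAX6 and SIX3 did not pass the test. A change here is the progenitor mean minus the hESC mean of log2(intensity + 16), which understates the change of dim genes, and a call is an adjusted p under 0.05 with limma over all genes tested. Of the 9 genes 5 were called, where 47.9% of all genes were called. The 4 that were lower stand against 21.2% of all genes, and the 1 that was higher against 26.7%. The median change of the 9 genes was 0.06, beside 0.04 over all genes, and it turned to -0.01 without progenitor array 1. At least 2-fold lower were 3 members, beside 7.22% of all genes, and at least 2-fold higher was 1, beside 9.39%. In cells measured in bulk, fewer cells that express a gene and less RNA per cell cannot be told apart.

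**Figure D1:**
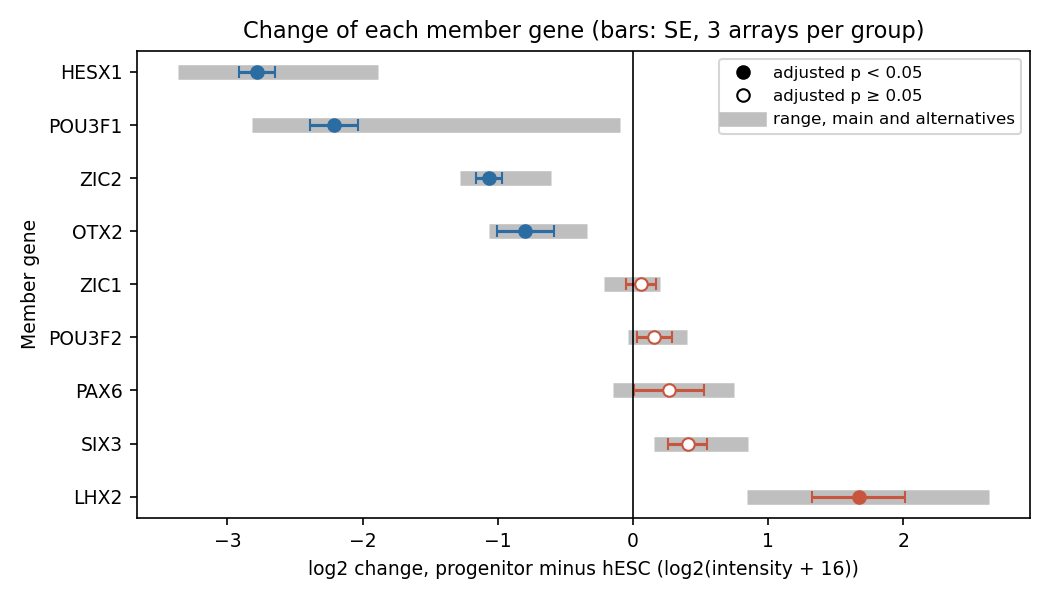
Log2 change of each member gene, progenitor minus hESC, with SE as error bars and 3 arrays per group; filled points passed an adjusted p of 0.05, and grey bars span the values under the main and the alternative settings. HESX1 at -2.78, POU3F1 at -2.21, ZIC2 at -1.06 and OTX2 at -0.80 lie on the lower side and LHX2 at 1.67 on the higher; the bar of POU3F1 reaches -0.10, the value of its other probe set.

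The promoters of the called genes are shown because these members moved, and 4 of them in the same direction. Each line gives the 250 bases before a start site of the gene from RefSeq (GRCh38.p14), 5′ to 3′ on the gene's strand. Capitals mark every match to 8 motifs searched on both strands, which are the homeodomain core TAATTA, the OTX class TAATCC, the octamer ATGCAAAT, the SOX class ACAATG, the TCF class ATCAAAG, the CCAAT box CCAAT, the GC box GGGCGG and the TATA box TATAAA. HESX1 has 2 start sites in the table, OTX2 has 2 and the upstream one is printed.
ZIC2, chr13:99981534-99981783, plus strand: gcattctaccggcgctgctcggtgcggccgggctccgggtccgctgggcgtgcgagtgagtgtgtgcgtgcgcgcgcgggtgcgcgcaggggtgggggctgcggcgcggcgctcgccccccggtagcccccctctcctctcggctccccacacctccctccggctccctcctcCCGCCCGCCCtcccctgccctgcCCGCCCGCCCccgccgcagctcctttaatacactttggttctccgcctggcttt
OTX2, chr14:56810480-56810729, minus strand: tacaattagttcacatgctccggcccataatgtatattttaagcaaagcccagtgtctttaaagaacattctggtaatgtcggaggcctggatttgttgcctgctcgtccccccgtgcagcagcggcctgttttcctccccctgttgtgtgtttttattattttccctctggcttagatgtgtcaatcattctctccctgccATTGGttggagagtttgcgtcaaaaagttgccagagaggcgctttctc
POU3F1, chr1:38046794-38047043, minus strand: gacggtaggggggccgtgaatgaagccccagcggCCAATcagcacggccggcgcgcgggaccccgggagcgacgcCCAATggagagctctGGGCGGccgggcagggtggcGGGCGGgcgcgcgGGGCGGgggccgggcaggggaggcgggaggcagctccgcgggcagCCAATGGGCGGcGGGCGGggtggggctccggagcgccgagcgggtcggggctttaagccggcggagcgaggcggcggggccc
HESX1, upstream start, chr3:57227616-57227865, minus strand: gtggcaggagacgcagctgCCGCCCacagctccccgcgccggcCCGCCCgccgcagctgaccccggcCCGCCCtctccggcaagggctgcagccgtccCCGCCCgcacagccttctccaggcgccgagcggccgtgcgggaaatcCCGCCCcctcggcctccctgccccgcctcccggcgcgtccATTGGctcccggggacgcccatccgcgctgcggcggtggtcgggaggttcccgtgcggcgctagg
HESX1, downstream start, chr3:57199979-57200228, minus strand: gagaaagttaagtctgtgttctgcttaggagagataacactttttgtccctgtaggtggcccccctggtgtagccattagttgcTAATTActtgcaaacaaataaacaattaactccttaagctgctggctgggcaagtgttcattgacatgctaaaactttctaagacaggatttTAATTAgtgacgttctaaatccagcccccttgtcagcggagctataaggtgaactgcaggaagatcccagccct
LHX2, chr9:124011518-124011767, plus strand: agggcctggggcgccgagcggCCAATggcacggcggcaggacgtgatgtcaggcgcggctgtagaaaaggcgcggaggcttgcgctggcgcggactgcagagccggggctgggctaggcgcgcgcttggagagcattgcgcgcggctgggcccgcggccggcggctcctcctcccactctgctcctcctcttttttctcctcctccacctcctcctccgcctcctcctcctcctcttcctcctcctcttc

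GC boxes and CCAAT boxes made up most of these matches. The window of POU3F1 held 5 GC boxes and 3 CCAAT boxes, that of ZIC2 held 4 GC boxes in overlapping pairs, and the upstream window of HESX1 held 5 GC boxes and 1 CCAAT box. At least 1 GC box was present in 42.6% and at least 1 CCAAT box in 32% of all 35116 windows of this length, so a single match is common. The share of windows with several matches was not counted. The downstream window of HESX1 was of another kind, with a GC content of 43.6% against 79.2% upstream and with the homeodomain core at 166 and at 74 bases before the start. That core occurred in 4.35% of all windows. The printed windows of OTX2 and LHX2 each held 1 CCAAT box. The downstream window of OTX2, not printed, had a GC content of 50% and no match to any of the 8 motifs. The GC content was 80.8% for POU3F1, 75.6% for ZIC2, 70.4% for LHX2 and 47.2% for OTX2, beside a median of 58% over all windows. No match to the other 5 motifs was found in the printed windows; they occurred in 5.62% (OTX class), 1.63% (octamer), 9.29% (SOX class), 2.26% (TCF class) and 10.7% (TATA box) of all windows. A match is a run of letters, and the arrays do not tell which start site a transcript came from. The table held 8 of the 9 members, all but SIX3. ZIC1 and POU3F2 have 1 window each and PAX6 has 9. These windows held CCAAT and GC boxes, a TCF class match in POU3F2 at 88 bases before the start and a SOX class match in 1 window of PAX6 at 85 bases, and no homeodomain core.

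Progenitor array 1 stood apart from arrays 2 and 3. Over all genes, 208 and 180 genes were more than 2-fold apart between array 1 and arrays 2 and 3, against 7 between arrays 2 and 3. The hESC arrays differed from each other by 46 to 146 genes of this size. The hESC arrays had median deposited intensities from 33.1 to 36.1, and the progenitor arrays from 31.0 to 31.2. The values of array 1 are therefore given singly for each member below.

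HESX1, a paired-like homeodomain repressor of the early forebrain and pituitary, fell the most. Its single probe set had deposited intensities of 259, 294 and 231 on the hESC arrays and of 17.7, 28.5 and 25.6 on progenitor arrays 1, 2 and 3. The groups were far apart, and the progenitor values lay below the median of all probe sets on their arrays. On the log2 scale the level was 8.13 ± 0.15 (SD, n = 3) in hESC and 5.36 ± 0.22 in the progenitors (adjusted p = 3.87e-06). Array 1 was here the lowest of the progenitor arrays, by 0.36 against the mean of the others. Without it the change was -2.64.

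POU3F1, a POU-domain factor of the primed epiblast and of early neural progenitors, was second. Its brighter probe set stood at 141, 211 and 129 in hESC and at 23.9, 22.1 and 16.4 in the progenitors. The groups did not overlap and the 3 progenitor arrays were close together. The level was 7.45 ± 0.34 in hESC and 5.24 ± 0.16 in the progenitors (adjusted p = 4.92e-05). This call rests on a probe set whose suffix, _s_at, marks probes that can match several transcripts. The other probe set of POU3F1 was dim on every array, with 5.43 to 7.49 in hESC and 1.42 to 6.95 in the progenitors, and it differed by -0.10 (adjusted p = 0.58 over all probe sets).

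ZIC2, a zinc finger factor of the epiblast and dorsal neural tube, had its fall from a bright signal. It was measured by 1 probe set, at 3263, 3647 and 2867 in hESC and at 1509, 1483 and 1432 in the progenitors. Every progenitor array lay below every hESC array, and the progenitor arrays differed among themselves by little. The levels were 11.64 ± 0.14 and 10.58 ± 0.03 (adjusted p = 8.81e-05). ZIC2 remained well above the array median in the progenitors. Its neighbour on chromosome 13, ZIC5, fell too, by 1.52 (SE 0.10, adjusted p = 1.43e-05), while PCCA on the other side differed by 0.10 (adjusted p = 0.458).

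OTX2, the homeodomain factor of the epiblast, forebrain and midbrain, was lower on both of its probe sets. The brighter one stood at 1335, 1516 and 1304 in hESC and at 1096 on progenitor array 1, 617 on array 2 and 636 on array 3. The second stood at 289, 333 and 339 in hESC and at 219, 118 and 123 on the progenitor arrays in the same order. On both, array 1 lay between the hESC arrays and the other progenitor arrays, and the groups did not overlap. The change was -0.80 (SE 0.21, adjusted p = 0.0171) on the brighter probe set and -1.06 (SE 0.20, adjusted p = 0.00406 over all probe sets) on the other. Without progenitor array 1 the brighter probe set changed by -1.07 (adjusted p = 2.73e-04). Its call was lost without progenitor array 2 (-0.66, adjusted p = 0.0549), progenitor array 3 (-0.68, 0.0575) or hESC array 2 (-0.74, 0.0639), and with scaling on hybridization controls (-0.34, 0.12), all in the fit over genes. In the fit over all probe sets the brighter one lost its call in the same settings and without hESC array 1 (adjusted p = 0.053). The second probe set passed there under all 18 alternatives run on it. Both OTX2 probe sets were above the array median on all 6 arrays.

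LHX2, a LIM homeodomain factor of the eye field and cortex that is also found in blood progenitors and limb mesenchyme, was the member that rose. Its brighter probe set stood at 8.31, 8.65 and 13.4 in hESC and at 136 on progenitor array 1, 37.5 on array 2 and 46.7 on array 3. The second stood at 9.40, 7.14 and 6.98 in hESC and at 87.4, 21.7 and 19.3 in the progenitors. On both, every progenitor array was above every hESC array, and array 1 was well above its group. The level was 4.68 ± 0.17 in hESC and 6.35 ± 0.76 in the progenitors (adjusted p = 0.00528). Array 1 exceeded the mean of arrays 2 and 3 by 1.3, a difference that 64 of 19775 genes reached in this direction. Without array 1 the change was 1.24 with an adjusted p = 6.92e-04, and on the second probe set it was 0.69 in place of 1.17, a fall in size by over 1.5 times. The call of the second probe set (adjusted p = 0.0366) was lost without hESC array 1, 2 or 3 (0.0897 to 0.105), at a pseudocount of 64 (0.0957), without normalization (0.0502) and with median centring (0.0545). The size also depended on the pseudocount, with 2.64 at a pseudocount of 1 and 0.84 at 64, since LHX2 was dim in hESC.

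**Figure D2:**
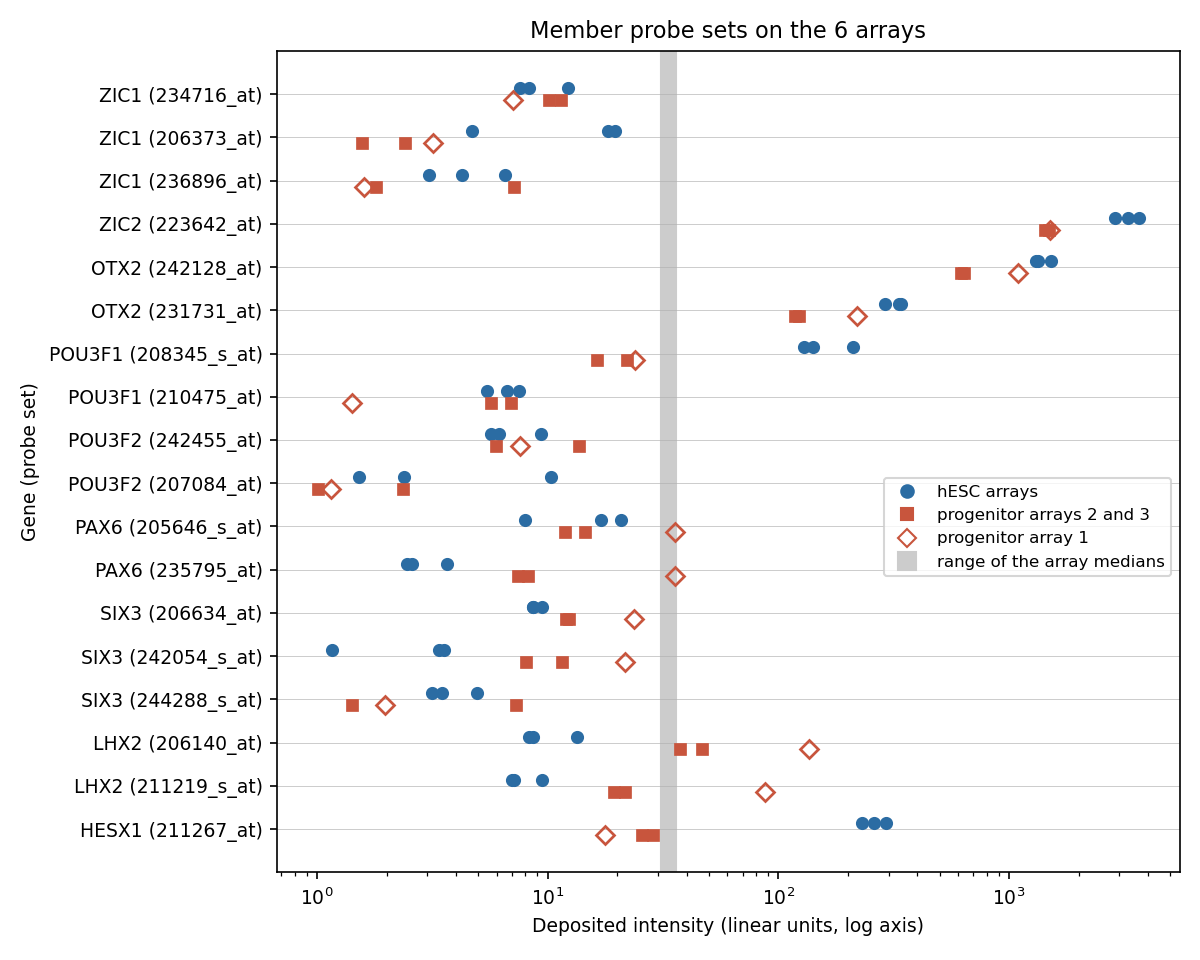
Deposited intensity of each of the 18 member probe sets on each of the 6 arrays, on a log axis; circles are hESC arrays, squares progenitor arrays 2 and 3, and open diamonds progenitor array 1, and the grey band spans the medians of the 6 arrays, 31.0 to 36.1. HESX1 and the brighter probe set of POU3F1 cross the band from hESC to progenitors, ZIC2 and OTX2 stay to its right, and ZIC1, POU3F2 and SIX3 stay to its left.

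The other 4 members were dim in both groups. ZIC1, POU3F2 and SIX3 lay below the array median on every array with every probe set, 9 probe sets with the second one of POU3F1 included, and a difference there is read from signals near the floor of the table. Of all deposited values 2.15% equalled 1. For genes this dim a true change may not be detectable.

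SIX3, a homeodomain repressor that defines the anterior tip of the neural plate, was the closest to a call. Its brightest probe set stood at 9.47, 8.60 and 8.62 in hESC and at 23.7, 11.9 and 12.4 on progenitor arrays 1, 2 and 3. The progenitor arrays lay above all hESC arrays, with a change of 0.41 (SE 0.15, adjusted p = 0.0546), and of 0.24 (adjusted p = 0.0522) without progenitor array 1. A second probe set, at 3.37, 3.54 and 1.16 in hESC and 21.5, 8.06 and 11.5 in the progenitors, differed by 0.69 and passed over all probe sets (adjusted p = 0.0134). The remaining probe set differed by -0.01 (adjusted p = 0.955). The gene passed with the replicate number as a block (adjusted p = 0.0474), when its probe sets were averaged (0.36, adjusted p = 0.0203) and under 5 other alternatives, so that it lay at the threshold. SIX3-AS1, which is adjacent, differed by -0.28 (adjusted p = 0.121), and SIX2, a neighbouring coding gene, by 0.37 (0.298).

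PAX6, a paired-box factor of the eye, forebrain and neural progenitors, stood out on progenitor array 1. Its brighter probe set read 20.8, 8.0 and 16.9 in hESC and 35.5, 14.5 and 11.9 in the progenitors, so that arrays 2 and 3 lay within the hESC range. The change was 0.27 (SE 0.26, adjusted p = 0.449), and it was -0.01 without array 1. The other probe set read 3.65, 2.57 and 2.44 in hESC and 35.6, 7.42 and 8.23 in the progenitors. Every progenitor array was there above every hESC array, with a change of 0.75 (SE 0.29, adjusted p = 0.0771 over all probe sets) and of 0.37 (adjusted p = 0.0197) without array 1.

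ZIC1, a zinc finger factor of the dorsal neural tube and somites, was not called on its brightest probe set, at 8.28, 7.60 and 12.2 in hESC and at 7.09, 11.4 and 10.1 in the progenitors (change 0.06, SE 0.11, adjusted p = 0.708). A second probe set read 18.3, 19.6 and 4.67 in hESC and 3.18, 2.41 and 1.56 in the progenitors. It passed over all probe sets, at -0.63 (adjusted p = 0.0324). The call was lost when any array other than hESC array 3 was left out, with adjusted p from 0.0682 to 0.114. ZIC4, which neighbours ZIC1 as ZIC5 does ZIC2, differed by 0.14 (adjusted p = 0.645).

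POU3F2, a POU-domain factor that drives neuronal differentiation, read 9.32, 6.17 and 5.66 in hESC and 7.61, 13.6 and 5.96 in the progenitors. The groups overlapped, with a change of 0.16 (SE 0.13, adjusted p = 0.372), and its other probe set differed by -0.20 (adjusted p = 0.349 over all probe sets).

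By probe set, 9 of 18 were called, beside 43.4% of all probe sets: 3 were higher and 6 lower in the progenitors, beside 24.2% and 19.2%. The groups did not overlap for 11 of the 18, beside 53.6% of all probe sets, with the progenitors above in 5 (beside 29.8%) and below in 6 (beside 23.8%). By gene they did not overlap for 6 of 9, beside 57.3%, with the progenitors above in 2 (beside 32%) and below in 4 (beside 25.3%). Without progenitor array 1, 4 probe sets were higher and 5 lower, and the counts by gene were again 1 higher and 4 lower.

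LHX2, PAX6, OTX2 and SIX3 differed within the progenitor group. On array 1 their levels exceeded the mean of arrays 2 and 3 by 1.3, 0.84, 0.79 and 0.51 on the log2 scale, and their second probe sets did so by 1.45, 1.14, 0.72 and 0.56. The remaining probe set of SIX3 did not (-0.18). Arrays 2 and 3 differed from each other by at most 0.24 on these 8 probe sets. Differences as large in this direction were seen in 0.324%, 1.3%, 1.5% and 4.1% of all genes. ZIC2 differed by 0.04, POU3F1 by 0.18, and HESX1 was lower on array 1, by 0.36.

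**Figure D3:**
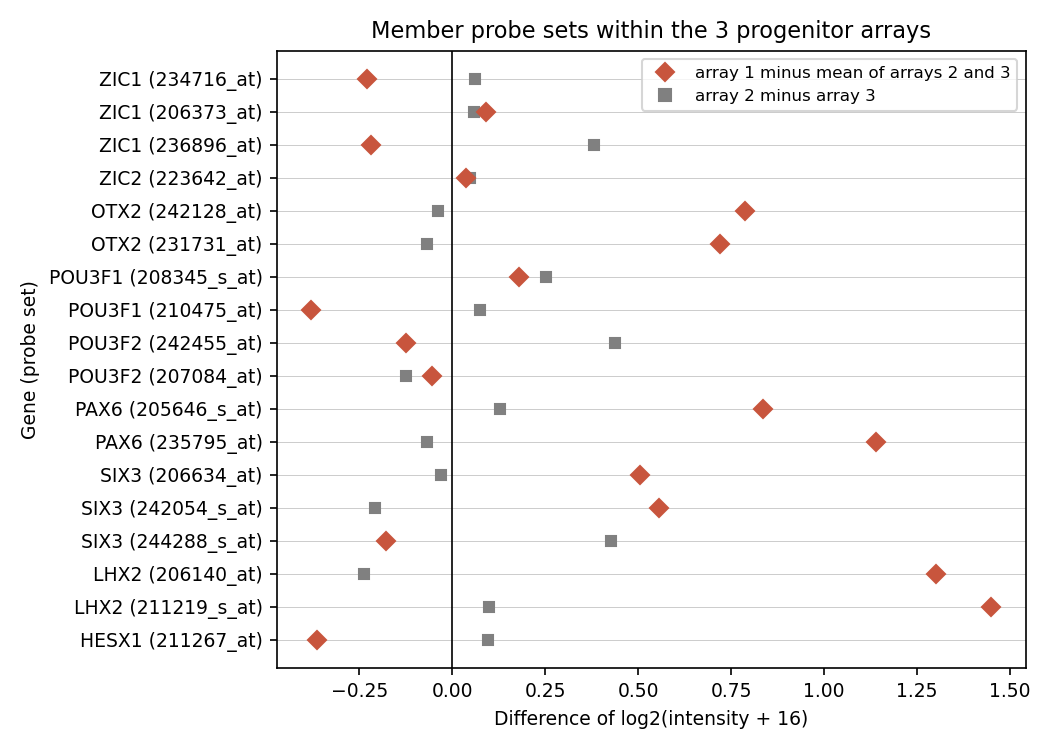
Differences within the progenitor group for the 18 member probe sets, in log2(intensity + 16); diamonds are array 1 minus the mean of arrays 2 and 3, and squares are array 2 minus array 3. Both probe sets of LHX2 (1.3 and 1.45), PAX6 (0.84 and 1.14) and OTX2 (0.79 and 0.72) and a pair of SIX3 (0.51 and 0.56) lie to the right.

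Markers of other cell types moved with array 1 to different extents. Of 12 endothelial and blood markers, all 12 exceeded, on array 1, the average of arrays 2 and 3, by a median of 1.32, and their summed intensity was 6859 on array 1, 2121 on array 2, 2278 on array 3 and 783.4 to 814.9 in hESC. In CDH5 (VE-cadherin) the difference was 3.00. Of 10 neural crest markers 8 were higher on array 1 (median 0.31, summed intensity 4589 against 3632 and 3599, and 1909 to 2173 in hESC). Of 15 markers of neural progenitors and neurons 8 were higher (median 0.08), with a summed intensity of 10260 on array 1, 10010 on array 2, 10300 on array 3 and 10590 to 10950 in hESC. Single neural markers stood out on array 1, namely the microtubule protein MAP2 by 1.68, STMN2 by 1.37 and the radial glia protein FABP7 by 1.26. DCX, GAP43, ELAVL3, SYT1 and INA were also higher on it, by less. DCX was at a log2 level of 6.21 against 5.29 and 5.44, and INA at 6.72 against 6.65 and 6.63. Not higher were NES, SOX1, MSI1, TUBB3, SNAP25, RBFOX3 and ELAVL4. RBFOX3 was at 6.08 against 6.52 and 6.46, and ELAVL4 at 5.29 against 5.57 and 5.56. The neural and pluripotency factor SOX2, counted here with the stem cell markers, was higher on array 1 by 0.91. Of 11 stem cell markers 6 were higher (median 0.14, summed intensity 14050 against 13450 and 13460, and 38050 to 41370 in hESC). Of 12 mesoderm markers 7 were higher (median 0.03, summed intensity 30650 against 28960 and 29250, and 1721 to 2474 in hESC), and of 10 endoderm markers 6 (median 0.12, summed intensity 2310 against 1497 and 1474, and 603.6 to 688.0 in hESC). The part of any of these in the levels of the members was not tested.

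The same lists were compared between the groups. Of the mesoderm markers all 12 rose (median change 5.30), led by the apelin receptor APLNR (7.61) and the transcription factor HAND1 (7.54). Of the stem cell markers 10 fell and 1 did not pass (median -1.64), among them NANOG (-4.17) and SOX2 (-3.52). Of the neural markers 6 fell, 3 rose and 6 did not pass (median -0.06): the synaptic vesicle protein SYT1 fell by 2.29, FABP7 rose by 1.48, and the tubulin TUBB3, bright in both groups, differed by 0.01. The probe sets of TUBB3 carry the suffix _x_at, which marks probes that may also match other genes. MAP2 fell by 1.39, a call lost without any single array except progenitor array 1. STMN2 differed by -0.06, and without progenitor array 1 it fell by 0.51 (adjusted p = 0.0143). Without that array 7 neural markers were lower, 3 higher and 5 not called (median -0.26). Of the neural crest markers 4 rose, 2 fell and 4 did not pass (median 0.38), with SNAI2 (6.21) and TFAP2A (4.19) higher and ERBB3 (-2.56) lower. The neural crest split was 3, 2 and 5 without progenitor array 1 (median 0.15). SOX10, a glial and crest factor, rose by 0.36, a call lost without any single array except hESC array 3. Of the endoderm markers 6 rose, 2 fell and 2 did not pass (median 1.15), with GATA4 (4.89), which mesoderm also expresses, at the top. Of the endothelial and blood markers 6 rose and 6 did not pass (median 1.10), with LMO2 (3.97) and CDH5 (3.85) at the top. LMO2 rests on an _s_at probe set, and its other probe set differed by 0.13 without passing. TAL1, a blood factor, rose by 2.41, by 1.58 without progenitor array 1, and lost its call without hESC array 3 (adjusted p = 0.0521). Without progenitor array 1 the list counted 6 higher, 1 lower and 5 not passed (median 0.73).

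Other transcription factors of the epiblast fell with HESX1, POU3F1, ZIC2 and OTX2. The 22 measured comprised 17 that fell, 3 that rose and 2 that missed the threshold, with a median change of -1.04 against 0.04 over all genes. PRDM14, NANOG, SOX2, ZFP42 and SALL4 are also among the stem cell markers above, and FOXD3 is among the neural crest markers. The counts of these lists therefore share genes. PRDM14, a repressor that maintains human pluripotency, was at 1793, 2209 and 1570 in hESC and at 49.0, 39.8 and 44.1 in the progenitors (-4.85, SE 0.12). SOX3, a relative of SOX2 in the neural plate, fell by 3.17 (SE 0.22), with -0.50 on a dim second probe set that did not pass. The zinc finger factor SALL1 rose by 2.35 and ETV5, an ETS factor downstream of FGF, by 1.60, and SOX11 rose by 0.39, a call lost when any of 5 single arrays was left out (all except progenitor array 1). SALL4 did not pass, at -0.29, and did so without progenitor array 1 (-0.50, adjusted p = 0.0472).

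The other anterior neural factors had no common direction. The 25 measured comprised 7 that rose, 3 that fell and 15 that missed the threshold, with a median change of 0.16. Without progenitor array 1 the split was 7, 2 and 16, with a median of 0.04. The iroquois factors IRX3 and IRX2 moved in opposite directions. IRX3, which limb and intermediate mesoderm also express, stood at 36.6, 51.6 and 53.5 in hESC and at 2288, 2945 and 2848 in the progenitors (5.50, SE 0.15), and IRX2 at 1477, 1422 and 1298 in hESC and 188, 194 and 193 in the progenitors (-2.75, SE 0.08). A dim second probe set of IRX2 differed by -0.09 without passing. SP8, a zinc finger factor of the forebrain and limb ridge, rose by 1.70 (0.07 on its dimmer probe set, not passed), and the homeodomain factors DLX2 and DLX1 by 1.59 and 0.87. Another probe set of DLX2 fell by 0.45, and DLX1 missed the threshold when its probe sets were averaged (0.33). The proneural factor NEUROG1 fell by 0.45 on an _x_at probe set, its only one, and not with scaling on hybridization controls (-0.10). The cortical factor EMX1 was lower by 0.31 at its brightest probe set, another probe set rose by 1.06, and their average rose by 0.37, so that its direction is not settled. Its lower call was also lost without progenitor array 1 or 2 or hESC array 1 or 2. NKX2-1 and IRX1 did not pass, at 0.17 and 0.16, and both were called with hybridization-control scaling (0.52 and 0.47). The value of NKX2-1 is from an _x_at probe set, and its dimmer probe set differed by -0.25 without passing.

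**Figure D4:**
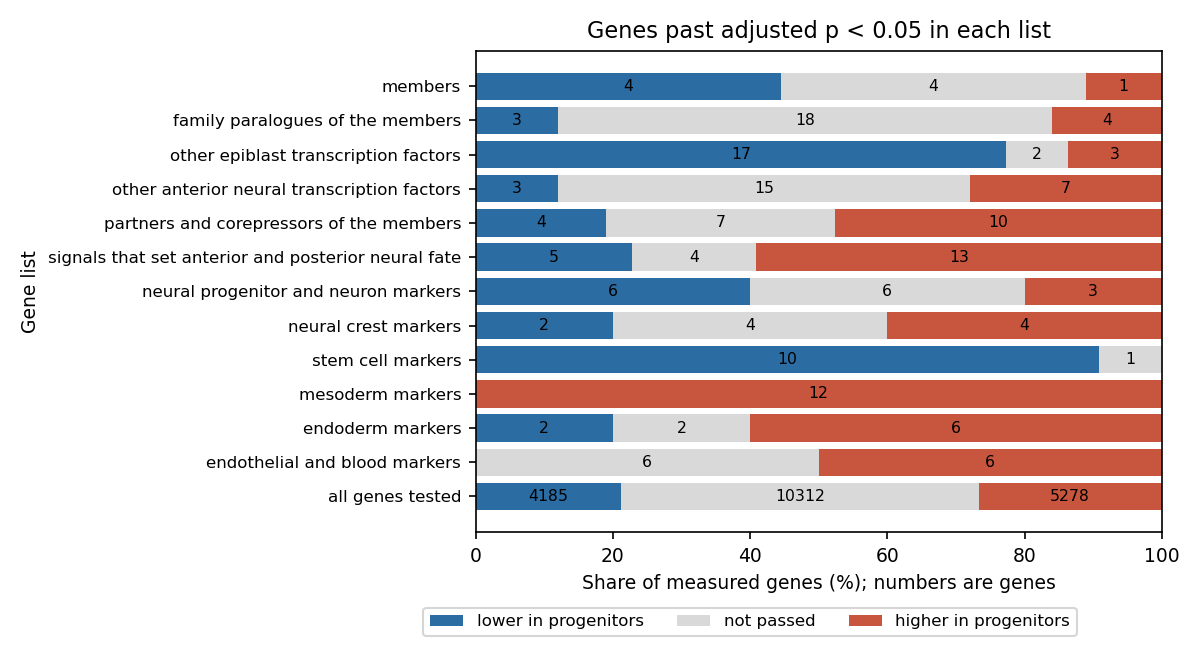
Share of the measured genes of each list that were lower, not past the test or higher in the progenitors, with the gene counts in the bars. The other epiblast factors have 17 of 22 genes lower, the other anterior neural factors 3 of 25 lower and 7 higher, and all genes tested are the bottom bar.

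Close relatives of the members were called in both directions. Of 25 measured paralogues in the ZIC, OTX, POU3F, PAX, SIX3 and LHX families 4 rose, 3 fell and 18 did not pass (median change 0.03), where 10312 of all 19775 genes did not pass. Of these paralogues 14 had a mean intensity under 20 in hESC. The split was 4, 4 and 17 without progenitor array 1, with a median of -0.01. Those that rose were LHX1, a LIM factor of nascent and intermediate mesoderm (5.74, SE 0.14), LHX8 (3.34, SE 0.10), PAX2, a paired-box factor of intermediate mesoderm and kidney (2.10, SE 0.09), and PAX7, a paired-box factor of the somite and neural crest (1.16, SE 0.23). The other probe set of PAX2, about as bright, differed by 0.28 (adjusted p = 0.232 over all probe sets) and that of PAX7 by 0.07 (0.646), so each rise rests on 1 probe set. LHX1 stood at 10.4, 15.7 and 14.04 in hESC and at 1210, 1627 and 1624 in the progenitors, with array 1 the lowest, the reverse of LHX2. PAX7 read 65.4 on progenitor array 1 against 25.9 and 28.9 on its companions. ZIC5, LHX4 (-1.08) and SIX4 (-0.75) fell, SIX4 not with scaling on hybridization controls (-0.23). Both dimmer probe sets of LHX4 missed the threshold (-0.48 and -0.02). PAX8 and SIX5 did not pass, at -0.24 and 0.25; a pair of dimmer PAX8 probe sets rose by 0.38 and 0.47, and SIX5 passed with that scaling (0.76).

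The listed partners and corepressors of these factors, whether they aid or oppose them, changed in both directions. The 21 measured split into 10 that rose, 4 that fell and 7 without a call (median change 0.25). Without progenitor array 1 these numbers were 9, 3 and 9. HESX1 and SIX3 repress through corepressors of the Groucho family, and TLE1 fell by 2.25 (SE 0.18) and TLE2 by 1.3 (SE 0.26). TLE1 read 1498, 1563 and 1463 in hESC, 420 on progenitor array 1, and 257 and 248 on its companions. Chosen after their values were seen, TLE3 rose by 1.31, TLE4 by 0.88, and TLE5 differed by 0.25 without passing. LDB2, a cofactor that binds the LIM domains of proteins such as LHX2, rose by 2.76 (SE 0.08), from 320 to 363 in hESC to 2279 to 2414 in the progenitors. The homeodomain cofactors MEIS2 and MEIS1 rose by 5.36 and 4.30, and DACH1, a partner of SIX3-class and EYA proteins, by 2.98 (SE 0.44), with 437 on progenitor array 1 against 117 and 116. LMO3 and geminin (GMNN) fell by 0.60 and 0.25, and GMNN turned to 0.20 with scaling on hybridization controls without passing. GMNN lost its call when any array except hESC array 2 was left out. LMO3 lost its call when its probe sets were averaged (-0.19) and without progenitor array 2 or 3 or hESC array 1 or 2 (adjusted p = 0.0571 to 0.0603). SSBP3 and LMO4 did not pass on their brightest probe sets, at 0.08 and 0.24. The other probe sets of SSBP3 rose by 0.57 and 0.84 (adjusted p = 0.0119 and 0.00477 over all probe sets), and 1 dim probe set of LMO4 rose by 0.41 (0.045). With hybridization-control scaling they rose by 0.53 and 0.69, and LMO4 also passed without progenitor array 1 (0.32, adjusted p = 0.0372).

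Of 22 measured genes listed for setting the anterior or posterior character of neural tissue, 13 rose, 5 fell and 4 did not pass (median change 0.89). Not all of them are signals. The list also holds the transcription factors TBXT, CDX1, CDX2 and CDX4 and the retinoic acid enzymes ALDH1A2 and CYP26A1. All of these except CDX1 were among those that rose, and TBXT was also counted with the mesoderm markers. BMP4, a posterior and ventral signal that was also in the medium, rose by 6.11, the WNT antagonist DKK1 by 5.23, WNT5A by 4.99 and the inhibitor of nodal, BMP and WNT CER1 by 4.58. DKK1 read 2773 on progenitor array 1 against 1114 and 1210 on its companions, and CER1 at 1952 against 743 and 742. LEFTY1 (-5.33), FGF2 (-3.13), NODAL (-2.81) and the WNT antagonist SFRP1 (-2.13) fell. FGF8 and WNT8A did not pass, at 0.28 and 0.31, and WNT8A did without progenitor array 1 (0.45, adjusted p = 0.0115).

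Genes with the level pattern closest to that of a member were found by the root mean square difference of log2 levels over the 6 arrays, each gene centred on its mean. The nearest to HESX1 were PPL (0.05), POLR3G (0.08) and ZNF519 (0.10), and those to POU3F1 were PCLO (0.08), SYT1 (0.13) and TEX15 (0.13). For ZIC2 they were ADAM23 (0.02), QSER1 (0.03) and LRRC45 (0.03). For LHX2 they were STAB2 (0.06), KLF2 (0.11) and ELOVL2 (0.12). Within a distance of 0.3 lay 2029 genes for ZIC2, 215 for POU3F1, 148 for HESX1 and 62 for LHX2. The same distance was used for changes of unlike size and spread, so these counts do not rank how common the patterns are. STAB2 and KLF2 exceeded their arrays 2 and 3 on progenitor array 1 by 1.20 and 1.60. That follows from how they were found, since LHX2 was itself higher on that array. A likeness over 6 arrays in 2 groups is a description.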

How the data were processed

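Transcripts of 3 hESC and 3 progenitor samples were measured on one-colour oligonucleotide arrays with biotin-labelled cRNA, per the labels' protocols. The authors' deposited values are intensities on a linear scale, as the values show. Not given in the sources used here: summarisation, background correction and scaling.

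The table held 54675 probe sets, 41097 of them annotated to 1 gene. The 62 array controls were left out, and symbols were updated through gene identifiers for 41037 probe sets. Intensities were converted to log2(intensity + 16) and, since array medians spanned 0.1495, quantile-normalized. Each gene was taken by its brightest probe set. Genes, and separately all 1-gene probe sets, were fitted in limma 3.58.1 (lmFit, eBayes, R 4.3.3), two-sided, without covariates, with Benjamini-Hochberg adjustment over all features. The fit was tested on simulated data. Precision is limited by 3 arrays per group.

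The members and lists were chosen with earlier results of these data known. Named were all members and, from each list, genes among the 4 largest called changes each way and the brightest 2 not passed, EPCAM and NCAM1, and the 3 nearest genes of members changed by at least 1. Genes outside this rule were named too. Among them were chromosomal neighbours of members, TLE3, TLE4, TLE5, ZFP42 and some neural markers on progenitor array 1. The transcription factors and retinoic acid enzymes listed for anterior or posterior character were others. Listed genes without a probe set of their own were not analysed here. Alternatives varied pseudocount, scaling, filter, probe set, variance model, pairing and arrays. Figures were drawn with matplotlib 3.10.9.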

Additional observations from a re-analysis of the deposited data

How the results depend on the processing

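Across 18 to 20 alternatives per gene, ZIC2, LHX2 and HESX1 kept their direction and their call wherever they were tested, with changes from -1.28 to -0.60, from 0.84 to 2.64 and from -3.37 to -1.88. POU3F1 ranged from -2.82 to -0.10 and lost its call without _s_at and _x_at probe sets (adjusted p = 0.576). OTX2 ranged from -1.07 to -0.34 and lost its call in 5, among them with progenitor arrays 2 and 3 averaged (adjusted p = 0.0528). SIX3 ranged from 0.15 to 0.85. In the fit over genes ZIC1 (-0.21 to 0.20), POU3F2 (-0.03 to 0.40) and PAX6 (-0.15 to 0.75) changed sign and passed in none, with lowest adjusted p of 0.0759, 0.137 and 0.0728. In the fit over all probe sets, the other PAX6 probe set ranged from 0.28 to 1.99 (adjusted p 0.0158 to 0.171). The second of ZIC1 ranged there from -1.87 to -0.21 (0.000674 to 0.114), and the other of POU3F2 from -0.84 to -0.03 (0.045 to 0.875).

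The count of member genes that were higher was 2 in place of 1 at a pseudocount of 1, with averaged probe sets, with hybridization-control scaling, with array weights, with the replicate block and with progenitor arrays 2 and 3 as 1 array, SIX3 being the addition; leaving out single arrays gave 1 to 2. Without the dimmest 50% of genes it was 0 higher and 2 lower, since that filter leaves out LHX2, POU3F1 and HESX1 themselves. Member probe sets that were higher numbered 5 with scaling on hybridization controls, 1 at an adjusted p under 0.01 and 0 without the dimmest 50%, in place of 3. The share of higher genes among all called was 55.8%, 37.3% with median centring and 81.9% with scaling on hybridization controls, under which the genes had a median change of -0.15 and 0.32. No shared deviation was seen between arrays of the same replicate number: their deviations correlated at -0.02, 0.03 and -0.04 across genes. Whether the samples were paired is not stated, and this check cannot settle it. The replicate block changed no call of another member gene.

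Signals below the array median on all 6 arrays limit what ZIC1, POU3F2 and SIX3 can show, and PAX6 lay above it only on progenitor array 1.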
